A study of Homo sapiens with 12 samples.

Results

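The 36 genes described here are transcriptional targets of the tumour suppressor p53 that lie outside its core feedback loop and outside the death receptors. They were taken by symbol, and each of the 36 matched 1 of the 58735 genes counted. All 36 were among the 16053 genes with enough counts to be tested. RNA was sequenced from the human non-small cell lung cancer line A549, which is established in culture, with cells stably transfected either with a short hairpin RNA against FXR (shFXR line) or with a control hairpin (shControl line). Each line was sham irradiated or harvested 3 days after ionizing radiation, in 4 groups of 3 libraries that the design text calls biological replicates. The labels give shControl cells a WT genotype and shFXR cells an FXR knockdown genotype. They do not say whether a line is 1 clone, and no source used here gives the radiation dose or the harvest time of sham cells. Any other difference between the lines therefore cannot be told apart from the knockdown, nor any difference in time in culture from radiation.

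Libraries held between 17140918 and 19036159 counts. FXR was taken as NR1H4, which measured 22.0 to 29.1 CPM (a read count scaled to the TMM-adjusted library size) in shControl and 2.81 to 5.08 CPM in shFXR libraries. The summed level of 7 lung epithelial markers was 5164 to 7508 and 7243 to 8542 CPM in sham and irradiated shControl cells and 2598 to 3465 and 2448 to 2652 CPM in sham and irradiated shFXR cells. The keratins KRT8 and KRT18 gave most of it, while the alveolar marker SFTPC and the lung factor NKX2-1 had at most 8 counts in any library. The summed level of 5 fibroblast markers was 18.4 to 23.9 and 16.3 to 20.2 CPM in sham and irradiated shControl and 26.8 to 36.2 and 37.4 to 40.8 CPM in sham and irradiated shFXR cells. DCN gave most of it, and in sham shFXR cells DCN and COL3A1 were called higher and COL1A1 and LUM lower. The leukocyte markers CD3E and MS4A1 had 0 counts in all 12 libraries, PTPRC at most 2 and CD68 at most 3. Of 3 endothelial markers, VWF and CDH5 had at most 4 counts. The third, PECAM1, had 10 to 56 counts in shControl and 0 to 9 in shFXR libraries, highest in sham shControl library 1. PECAM1 was called lower in the shFXR line in sham and in irradiated cells. Replicates of shControl cells differed more than those of shFXR cells, with a chi-square per degree of freedom of 6.34 to 24.6 against 2.49 to 6.94 for pairs within a group. Sham shControl library 2 stood apart from both other libraries of its group. Its mitochondrial share was 16.8% against 12.9% and 13.6%, and counts with and without it are given beside the results it touches.

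p53 is a transcription factor that is stabilised when DNA damage kinases release it from the ubiquitin ligase MDM2. It binds a response element made of paired 10-base half-sites and switches on genes for cell cycle arrest, DNA repair, metabolic adjustment, autophagy and cell death, as well as genes that restrain p53 itself. Which targets stay raised days after irradiation depends on the gene and the cell. In bulk RNA, a change in the share of cells that express a gene and a change in the amount per cell cannot be told apart.

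The response element was looked for in RefSeq promoter windows of GRCh38.p14, each reaching from 250 bases before to 50 bases after a transcript start. A match was a pair of adjoining p53 half-site consensus sequences with the C at the fourth and the G at the seventh base of each half-site kept and at most 3 other mismatches. The consensus is its own reverse complement, so searching 1 strand covers both. Windows were found for 29 of the 36 genes, and 6 of them held a match (20.7%), against 1.37% of all 27305 genes with a window. With at most 2 mismatches the count was 3 of 29 (10.3%, against 0.359% of all genes), and with at most 4 it was 8 (27.6%, against 4.92%). The limit of 3 was chosen after the matches were seen. The genes were taken as p53 targets to begin with, so a share above that of all genes is no independent test of them. These stretches are shown because the match lies close to the transcript start, and they are printed 5′ to 3′ on the strand of the gene with the matched 20 bases in capitals.
DDB2: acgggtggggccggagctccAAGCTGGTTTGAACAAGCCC
AEN: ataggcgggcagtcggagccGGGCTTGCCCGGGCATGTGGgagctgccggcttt
PANK1: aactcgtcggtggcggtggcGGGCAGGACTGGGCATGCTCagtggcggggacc
FDXR: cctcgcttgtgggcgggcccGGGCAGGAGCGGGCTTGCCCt
RPS27L: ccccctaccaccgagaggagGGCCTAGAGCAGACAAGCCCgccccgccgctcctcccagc
SESN1: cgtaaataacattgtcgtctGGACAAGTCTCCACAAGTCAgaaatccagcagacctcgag
The DDB2 match, with 1 mismatch, begins 5 bases before the transcript start and lies across it, in chr11:47214949-47214988 on the plus strand. The AEN match begins 34 bases before the start (chr15:88621286-88621339, plus strand) and the PANK1 match begins 33 bases before it (chr10:89645243-89645295, minus strand), each with 2 mismatches. With 3 mismatches each, the FDXR match begins 21 bases before the start (chr17:74872995-74873035, minus strand), that of RPS27L 69 bases before (chr15:63157507-63157566, minus strand) and that of SESN1 49 bases before (chr6:109008998-109009057, minus strand). All 6 of these starts lie inside the bounds of the counted gene, that of SESN1 furthest inside. A match describes the letters in the window and was not tested as a binding site.

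Most of the 36 genes were higher after radiation in either line. In shControl cells 27 rose, 1 fell and 8 did not pass the test, where 5.07% of all tested genes were called higher and 4.96% lower. Among shFXR cells 23 rose, 0 fell and 13 did not pass, where 10.9% of all tested genes were called higher and 10.2% lower. Calls rest on edgeR's quasi-likelihood test with Benjamini-Hochberg adjustment at 0.05. At an unadjusted p under 0.05, and in DESeq2, the number of these genes lower in shFXR cells was also 0. The median log2 fold change was 0.54 in shControl and 0.36 in shFXR cells, beside -0.003 and 0.019 over all tested genes. Irradiated libraries lay wholly above sham libraries for 31 of the 36 genes in shControl cells (all tested genes 12.7%) and for 27 in shFXR cells (all tested genes 22.6%). The 36 genes were chosen with earlier results of these data known. The shares of all tested genes are therefore given for scale and are no independent test.

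Split by whether both lines responded, 19 genes rose in both lines (all tested genes 1.13%), 9 were called in shControl cells only (all tested genes 6.41%), 4 in shFXR cells only (17.4%) and 4 in neither (72.5%). The radiation contrasts of the lines share no library. Over the 36 genes their log2 fold changes had a Pearson correlation of 0.45, beside 0.22 over all tested genes. The value was larger in shControl cells for 24 of the 36 and for 48.4% of all tested genes. Without sham shControl library 2, 26 genes rose and 1 fell in shControl cells, and the count in both lines was again 19. Fitted on the 6 shControl libraries alone, 21 rose and 0 fell there, since DDB2, CCNG1, PLK3, BTG1, PHLDA3, TP53I3 and KITLG missed the threshold (adjusted p from 0.053 to 0.18).

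**Figure D1:**
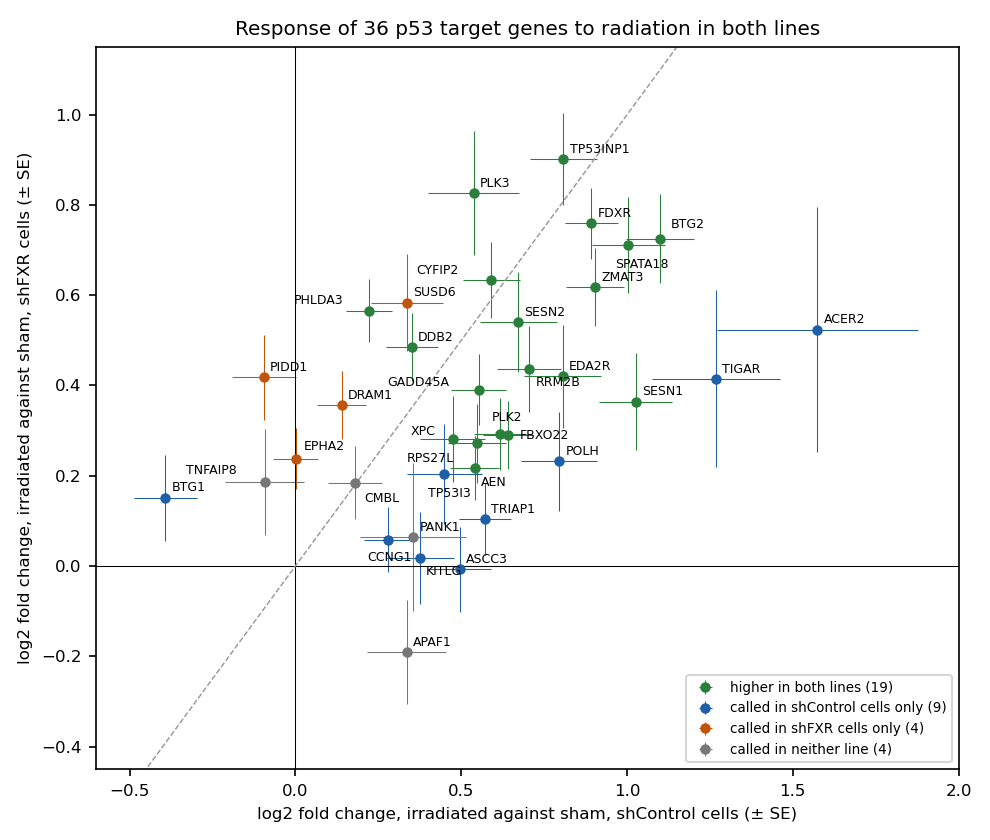
Log2 fold change after radiation (irradiated against sham, ± SE, n = 3 libraries per group) of each of the 36 genes in shControl cells (horizontal axis) and shFXR cells (vertical axis), coloured by the line in which the change was called, with the dashed line marking equal responses. The 19 genes called higher in both lines lie in the upper right, TIGAR, ACER2, SESN1, POLH and TRIAP1 lie to the right of the dashed line, and BTG1 lies left of 0 in shControl cells.

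**Figure D2:**
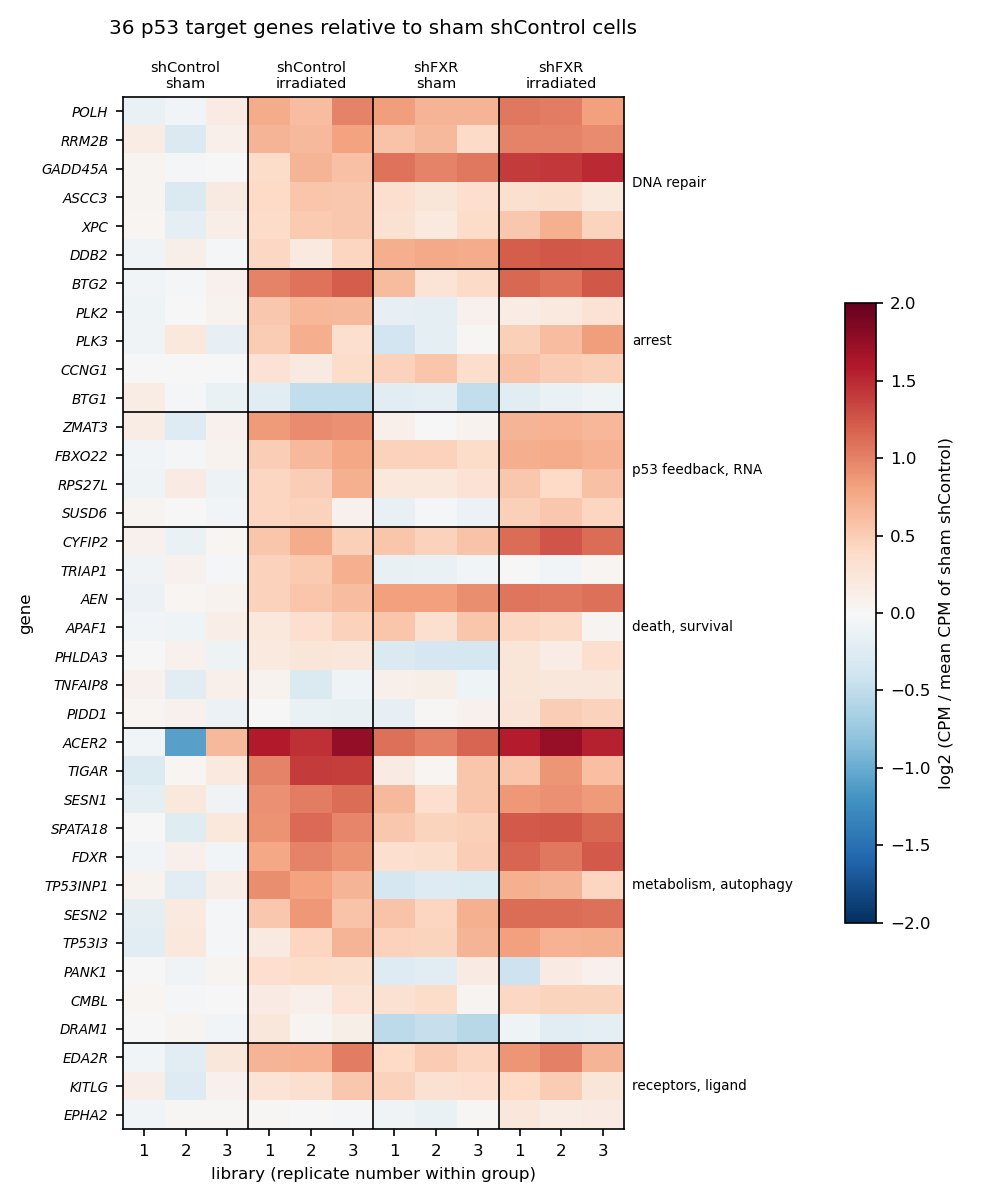
Level of each gene in each of the 12 libraries as the log2 ratio of its CPM to the mean CPM of the 3 sham shControl libraries, with genes grouped by role and libraries by group. The DNA repair block is raised in irradiated shControl cells and in sham shFXR cells, while DRAM1, PHLDA3 and TP53INP1 are below the reference in sham shFXR cells.

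All 6 DNA repair genes rose in shControl cells (all tested genes 5.07%), and 4 of the 6 rose in shFXR cells (all tested genes 10.9%). Roles were assigned with earlier results of these data known, so the counts by role are descriptive. DDB2, which encodes the damage-binding protein that finds ultraviolet lesions, measured 43.00, 48.8 and 43.8 CPM in sham and 60.4, 51.6 and 60.8 CPM in irradiated shControl cells, against 74.7, 76.2 and 75.5 CPM in sham and 105, 106 and 106 CPM in irradiated shFXR cells. It rose by 0.35 ± 0.08 (adjusted p = 0.0080) on the log2 scale in shControl and by 0.49 ± 0.08 (adjusted p = 1.1e-04) in shFXR cells. No groups overlapped, with irradiated above sham libraries in each line and sham shFXR above irradiated shControl libraries. GADD45A, a stress-induced regulator of growth arrest and repair, measured 30.1, 28.3 and 28.96 CPM in sham and 37.8, 46.6 and 43.9 CPM in irradiated shControl cells, against 61.9, 57.99 and 60.8 CPM in sham and 76.7, 77.9 and 82.03 CPM in irradiated shFXR cells. Its rise was 0.55 ± 0.08 (adjusted p = 3.4e-04) in shControl and 0.39 ± 0.08 (adjusted p = 0.0015) in shFXR cells, and again all sham shFXR libraries exceeded all irradiated shControl libraries.

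POLH, the gene of the translesion DNA polymerase eta, measured 10.8, 11.4 and 13.2 CPM in sham and 19.8, 18.2 and 23.5 CPM in irradiated shControl cells, against 21.05, 18.9 and 18.9 CPM in sham and 24.5, 23.9 and 20.8 CPM in irradiated shFXR cells. It rose by 0.80 ± 0.11 (adjusted p = 2.2e-04) in shControl cells, while its log2 fold change in shFXR cells was 0.23 ± 0.11 (adjusted p = 0.14) and the groups there overlapped. ASCC3 encodes a helicase used in the repair of alkylated DNA. It measured 58.1, 45.8 and 63.4 CPM in sham and 73.4, 81.6 and 81.1 CPM in irradiated shControl cells, against 70.2, 66.2 and 70.2 CPM in sham and 69.9, 71.2 and 64.4 CPM in irradiated shFXR cells. The sham shControl libraries, at 45.8 to 63.4 CPM, lay below all other libraries. ASCC3 rose by 0.50 ± 0.09 (adjusted p = 0.0026) in shControl cells against a log2 fold change of -0.01 ± 0.09 (adjusted p = 0.97) in shFXR cells. RRM2B, a ribonucleotide reductase subunit that supplies nucleotides for repair, rose by 0.71 ± 0.10 (adjusted p = 1.5e-04) and 0.44 ± 0.10 (adjusted p = 0.0028). XPC, which recognises helix-distorting lesions in nucleotide excision repair, rose by 0.47 ± 0.10 (adjusted p = 0.0042) and 0.28 ± 0.10 (adjusted p = 0.041). Of the exonic bases of XPC, 30.4% are shared with other genes, so the origin of reads there is uncertain where strand was not recorded.

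Among the genes of cell cycle arrest, 4 of 5 rose in shControl and 3 of 5 in shFXR cells (all tested genes 5.07% and 10.9%). BTG2, an antiproliferative cofactor of mRNA deadenylation at chr1:203305491-203309602 in hg38, had the largest mean response of the 19 genes that rose in both lines. BTG2 measured 13.5, 13.6 and 14.8 CPM in the sham and 27.8, 29.8 and 32.2 CPM in the irradiated shControl libraries, and 21.7, 16.9 and 18.2 CPM in the sham and 31.1, 29.7 and 33.03 CPM in the irradiated shFXR libraries. The rise was 1.10 ± 0.10 (adjusted p = 2.6e-06) in shControl and 0.73 ± 0.10 (adjusted p = 2.4e-05) in shFXR cells, and irradiated libraries lay above sham libraries in each. PLK3 and PLK2 encode stress-responsive polo-like kinases. PLK3 measured 10.7, 12.9 and 10.02 CPM in the sham and 15.9, 18.6 and 14.2 CPM in the irradiated shControl libraries, and 8.62, 9.82 and 11.3 CPM in the sham and 15.6, 17.3 and 19.9 CPM in the irradiated shFXR libraries. Its log2 rise was 0.54 ± 0.14 (adjusted p = 0.017) in shControl and 0.83 ± 0.14 (adjusted p = 2.4e-04) in shFXR cells, without overlap in either line. PLK2 rose by 0.62 ± 0.08 (adjusted p = 7.2e-05) and 0.29 ± 0.08 (adjusted p = 0.013).

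CCNG1 encodes cyclin G1, which recruits a phosphatase to MDM2. CCNG1 measured 149, 151 and 151 CPM in the sham and 184, 169.6 and 194 CPM in the irradiated shControl libraries, and 207, 222 and 193 CPM in the sham and 224, 214 and 209.6 CPM in the irradiated shFXR libraries. It rose by 0.28 ± 0.07 (adjusted p = 0.019) in shControl cells, and in shFXR cells, where the groups overlapped, the log2 fold change was 0.06 ± 0.07 (adjusted p = 0.61). BTG1, a relative of BTG2 and likewise antiproliferative, was the 1 gene of the 36 that fell. BTG1 measured 175, 153 and 143 CPM in the sham and 136, 111 and 111 CPM in the irradiated shControl libraries, and 135, 137 and 112 CPM in the sham and 136, 143 and 147 CPM in the irradiated shFXR libraries. It fell by 0.39 ± 0.09 (adjusted p = 0.013) in shControl cells against a log2 fold change of 0.15 ± 0.09 (adjusted p = 0.28) in shFXR cells, where sham library 3 was the lowest. Of the exonic bases of BTG1, 17.1% are shared with other genes, whose counts over all libraries were 124 and 109 against 29749 for BTG1.

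Genes that feed back on p53 or act on RNA and protein turnover rose in 3 of 4 cases in shControl and in 4 of 4 in shFXR cells. Of all tested genes, 5.07% and 10.9% were called higher in these lines. ZMAT3, an RNA-binding zinc finger protein that acts on splicing, measured 53.2, 40.04 and 50.99 CPM in sham and 87.2, 92.4 and 90.5 CPM in irradiated shControl cells, against 51.5, 48.4 and 50.5 CPM in sham and 77.3, 77.8 and 75.8 CPM in irradiated shFXR cells. The rise was 0.90 ± 0.09 (adjusted p = 3.7e-06) in shControl and 0.62 ± 0.09 (adjusted p = 3.4e-05) in shFXR cells, with no overlap between sham and irradiated libraries. FBXO22, a substrate receptor of a ubiquitin ligase, measured 83.8, 85.04 and 91.4 CPM in sham and 122, 136 and 148 CPM in irradiated shControl cells, against 119.7, 119 and 111 CPM in sham and 144, 145 and 140.0 CPM in irradiated shFXR cells. FBXO22 rose by 0.64 ± 0.08 (adjusted p = 3.4e-05) and 0.29 ± 0.07 (adjusted p = 0.0091), and its irradiated groups, unlike its sham groups, overlapped between the lines. RPS27L, a ribosomal protein S27 paralog that binds MDM2, rose by 0.55 ± 0.09 (adjusted p = 5.2e-04) and 0.27 ± 0.09 (adjusted p = 0.031). It has a close paralog in RPS27, and how reads that match both were assigned is not known. SUSD6, a membrane protein gene, measured 14.03, 13.3 and 12.96 CPM in sham and 18.2, 18.5 and 14.3 CPM in irradiated shControl cells, against 12.1, 13.1 and 12.4 CPM in sham and 18.7, 19.6 and 18.2 CPM in irradiated shFXR cells. It rose by 0.58 ± 0.11 (adjusted p = 6.8e-04) in shFXR cells, and in shControl cells its log2 fold change of 0.34 ± 0.11 (adjusted p = 0.054) missed the threshold although the groups did not overlap. DESeq2 called it there (adjusted p = 0.045).

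Of 7 genes of cell death and survival, 4 rose in each line (all tested genes 5.07% in shControl and 10.9% in shFXR cells). Of these, 3 rose in both lines, AEN, PHLDA3 and CYFIP2 (all tested genes 1.13%). AEN, an apoptosis-enhancing nuclease, measured 72.3, 80.9 and 82.00 CPM in sham and 108, 115 and 119.6 CPM in irradiated shControl cells, against 138, 138 and 149 CPM in sham and 164, 162 and 168 CPM in irradiated shFXR cells. The rise was 0.54 ± 0.07 (adjusted p = 1.2e-04) in shControl and 0.22 ± 0.07 (adjusted p = 0.034) in shFXR cells, where the sham levels were above those of irradiated shControl cells. PHLDA3, a repressor of the survival kinase AKT, measured 155, 166 and 146 CPM in sham and 178, 185 and 182 CPM in irradiated shControl cells, against 128, 123 and 122 CPM in sham and 184, 173 and 195 CPM in irradiated shFXR cells. PHLDA3 rose by 0.57 ± 0.07 (adjusted p = 8.2e-06) in shFXR cells and by 0.22 ± 0.07 (adjusted p = 0.0499) in shControl cells, a call lost without 11 of the 12 libraries (adjusted p up to 0.16). CYFIP2, which binds the FMR1 protein and belongs to the WAVE actin complex, rose by 0.59 ± 0.09 (adjusted p = 2.5e-04) and 0.63 ± 0.08 (adjusted p = 1.6e-05).

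TRIAP1, at chr12:120443961-120446412 in hg38, encodes a small survival protein that carries phosphatidic acid within mitochondria. TRIAP1 measured 52.1, 58.1 and 53.5 CPM in the sham and 75.1, 78.5 and 89.5 CPM in the irradiated shControl libraries, and 49.3, 49.7 and 52.6 CPM in the sham and 54.4, 52.3 and 56.1 CPM in the irradiated shFXR libraries. It rose by 0.57 ± 0.08 (adjusted p = 1.5e-04) in shControl cells, where the irradiated libraries exceeded all 9 others, and its log2 fold change in shFXR cells was 0.10 ± 0.08 (adjusted p = 0.39). PIDD1, the scaffold of the PIDDosome that activates caspase 2, lies at chr11:799179-809753 in hg38. PIDD1 measured 23.8, 24.6 and 21.4 CPM in the sham and 23.03, 21.3 and 20.9 CPM in the irradiated shControl libraries, and 20.7, 23.6 and 24.7 CPM in the sham and 27.8, 32.6 and 31.9 CPM in the irradiated shFXR libraries. It rose by 0.42 ± 0.09 (adjusted p = 0.0038) in shFXR cells against a log2 fold change of -0.10 ± 0.10 (adjusted p = 0.57) in shControl cells, where the groups overlapped. PIDD1 shares 107 exonic bases with RPLP2 on the other strand, a gene with 206554 counts against 5364 for PIDD1, so reads of RPLP2 could enter its value where strand was not recorded. Over all 36 genes, 15 share exonic bases with another gene.

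APAF1, the core of the apoptosome, measured 12.5, 12.3 and 14.3 CPM in sham and 15.02, 16.4 and 17.95 CPM in irradiated shControl cells, against 19.1, 16.3 and 19.1 CPM in sham and 17.4, 16.9 and 13.5 CPM in irradiated shFXR cells. Its log2 fold change was 0.34 ± 0.12 (adjusted p = 0.078) in shControl and -0.19 ± 0.12 (adjusted p = 0.26) in shFXR cells, so neither response passed. The apoptosis inhibitor gene TNFAIP8 had log2 fold changes of -0.09 ± 0.12 (adjusted p = 0.67) and 0.19 ± 0.12 (adjusted p = 0.28).

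The metabolic and autophagy genes were the largest group, and 8 of 11 rose in shControl against 6 of 11 in shFXR cells. The shares of all tested genes were again 5.07% and 10.9%. TP53INP1, which promotes autophagy and p53 phosphorylation, measured 28.2, 23.1 and 29.5 CPM in sham and 51.5, 47.1 and 43.1 CPM in irradiated shControl cells, against 21.4, 22.5 and 22.3 CPM in sham and 44.2, 43.4 and 36.2 CPM in irradiated shFXR cells. The rise was 0.81 ± 0.10 (adjusted p = 5.2e-05) in shControl and 0.90 ± 0.10 (adjusted p = 2.4e-06) in shFXR cells, the largest in the latter line among the 36 genes. SPATA18, which encodes the mitochondrial quality control protein Mieap, measured 10.7, 9.06 and 12.4 CPM in sham and 20.01, 23.6 and 21.05 CPM in irradiated shControl cells, against 15.6, 14.7 and 14.9 CPM in sham and 24.96, 25.3 and 23.8 CPM in irradiated shFXR cells. It rose by 1.00 ± 0.11 (adjusted p = 1.4e-05) and 0.71 ± 0.11 (adjusted p = 6.3e-05). FDXR, ferredoxin reductase of the mitochondrial electron transfer chain for steroid and iron-sulfur synthesis, measured 49.4, 55.2 and 49.2 CPM in sham and 88.1, 102 and 95.4 CPM in irradiated shControl cells, against 64.6, 65.3 and 72.1 CPM in sham and 115, 107 and 120.0 CPM in irradiated shFXR cells. FDXR rose by 0.89 ± 0.08 (adjusted p = 1.8e-06) and 0.76 ± 0.08 (adjusted p = 7.1e-07), and for both genes the irradiated libraries lay above the sham libraries in each line.

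The sestrins restrain the growth kinase complex mTORC1. SESN1, at chr6:108986437-109094819 in hg38, measured 10.6, 13.8 and 11.4 CPM in sham and 22.5, 24.1 and 25.9 CPM in irradiated shControl cells, against 18.6, 14.98 and 17.5 CPM in sham and 21.8, 22.4 and 21.6 CPM in irradiated shFXR cells. It rose by 1.03 ± 0.11 (adjusted p = 1.2e-05) in shControl and by 0.36 ± 0.11 (adjusted p = 0.02) in shFXR cells, from a sham level that was higher in the shFXR line. SESN2 rose by 0.67 ± 0.12 (adjusted p = 0.0012) and 0.54 ± 0.11 (adjusted p = 0.0016). TIGAR, a fructose bisphosphatase that diverts sugar from glycolysis, was among the less abundant of the 36 with 43 to 132 counts per library. TIGAR measured 2.27, 2.84 and 3.15 CPM in the sham and 5.48, 7.26 and 7.16 CPM in the irradiated shControl libraries, and 3.09, 2.81 and 4.05 CPM in the sham and 4.04, 5.05 and 4.20 CPM in the irradiated shFXR libraries. It rose by 1.27 ± 0.19 (adjusted p = 3.7e-04) in shControl cells, and the shFXR groups, at a log2 fold change of 0.41 ± 0.20 (adjusted p = 0.14), overlapped. TIGAR shares 42.6% of its exonic bases with an overlapping gene on the same strand that had 0 counts in all libraries. Whether reads in the shared bases were counted for TIGAR or dropped is not known.

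ACER2, a Golgi ceramidase, had the lowest counts, 6 to 48 per library. ACER2 measured 0.739, 0.362 and 1.21 CPM in the sham and 2.30, 2.12 and 2.60 CPM in the irradiated shControl libraries, and 1.66, 1.54 and 1.73 CPM in the sham and 2.27, 2.58 and 2.23 CPM in the irradiated shFXR libraries. ACER2 rose by 1.57 ± 0.30 (adjusted p = 0.0027) in shControl cells and its log2 fold change in shFXR cells was 0.52 ± 0.27 (adjusted p = 0.18), without overlap in either line. Sham shControl library 2 gave its lowest value, with 6 counts. DRAM1, a lysosomal membrane protein of autophagy, measured 60.5, 62.5 and 58.1 CPM in sham and 70.7, 63.02 and 65.7 CPM in irradiated shControl cells, against 41.9, 43.8 and 41.2 CPM in sham and 57.1, 51.97 and 53.5 CPM in irradiated shFXR cells. It rose by 0.36 ± 0.07 (adjusted p = 0.0020) in shFXR cells, where every irradiated library stayed below every sham shControl library, and in shControl cells the log2 fold change was 0.14 ± 0.07 (adjusted p = 0.24). The quinone oxidoreductase gene TP53I3 rose by 0.45 ± 0.11 (adjusted p = 0.017) in shControl cells, where the groups overlapped. It had 0.20 ± 0.11 (adjusted p = 0.20) in shFXR cells, where they did not. Fitted on each line alone, TP53I3 passed in shFXR cells (adjusted p = 0.022) and missed in shControl cells (adjusted p = 0.066). PANK1, a pantothenate kinase of coenzyme A synthesis, had log2 fold changes of 0.35 ± 0.16 (adjusted p = 0.17) and 0.06 ± 0.16 (adjusted p = 0.82), and the hydrolase gene CMBL had 0.18 ± 0.08 (adjusted p = 0.17) and 0.18 ± 0.08 (adjusted p = 0.11).

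Of the receptors and ligands, EDA2R, an ectodysplasin receptor of the tumour necrosis factor receptor family, rose in both lines. EDA2R measured 21.6, 19.4 and 26.4 CPM in the sham and 35.9, 36.4 and 45.8 CPM in the irradiated shControl libraries, and 29.7, 31.9 and 30.3 CPM in the sham and 41.5, 45.3 and 36.1 CPM in the irradiated shFXR libraries. The log2 rise was 0.81 ± 0.12 (adjusted p = 2.2e-04) and 0.42 ± 0.11 (adjusted p = 0.013). EPHA2, an ephrin receptor kinase, measured 190.3, 202 and 202 CPM in sham and 201, 199 and 194 CPM in irradiated shControl cells, against 188, 180.0 and 202 CPM in sham and 232, 219.7 and 221 CPM in irradiated shFXR cells. EPHA2 rose by 0.24 ± 0.07 (adjusted p = 0.016) in shFXR cells, and in shControl cells the libraries overlapped at a log2 fold change of 0.00 ± 0.07 (adjusted p = 1.00). KITLG, the ligand of the KIT receptor, rose by 0.38 ± 0.10 (adjusted p = 0.025) in shControl cells and had 0.02 ± 0.10 (adjusted p = 0.92) in shFXR cells. Its shControl call was lost without sham library 2, irradiated library 2 or irradiated library 3 of that line (adjusted p up to 0.13).

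**Figure D3:**
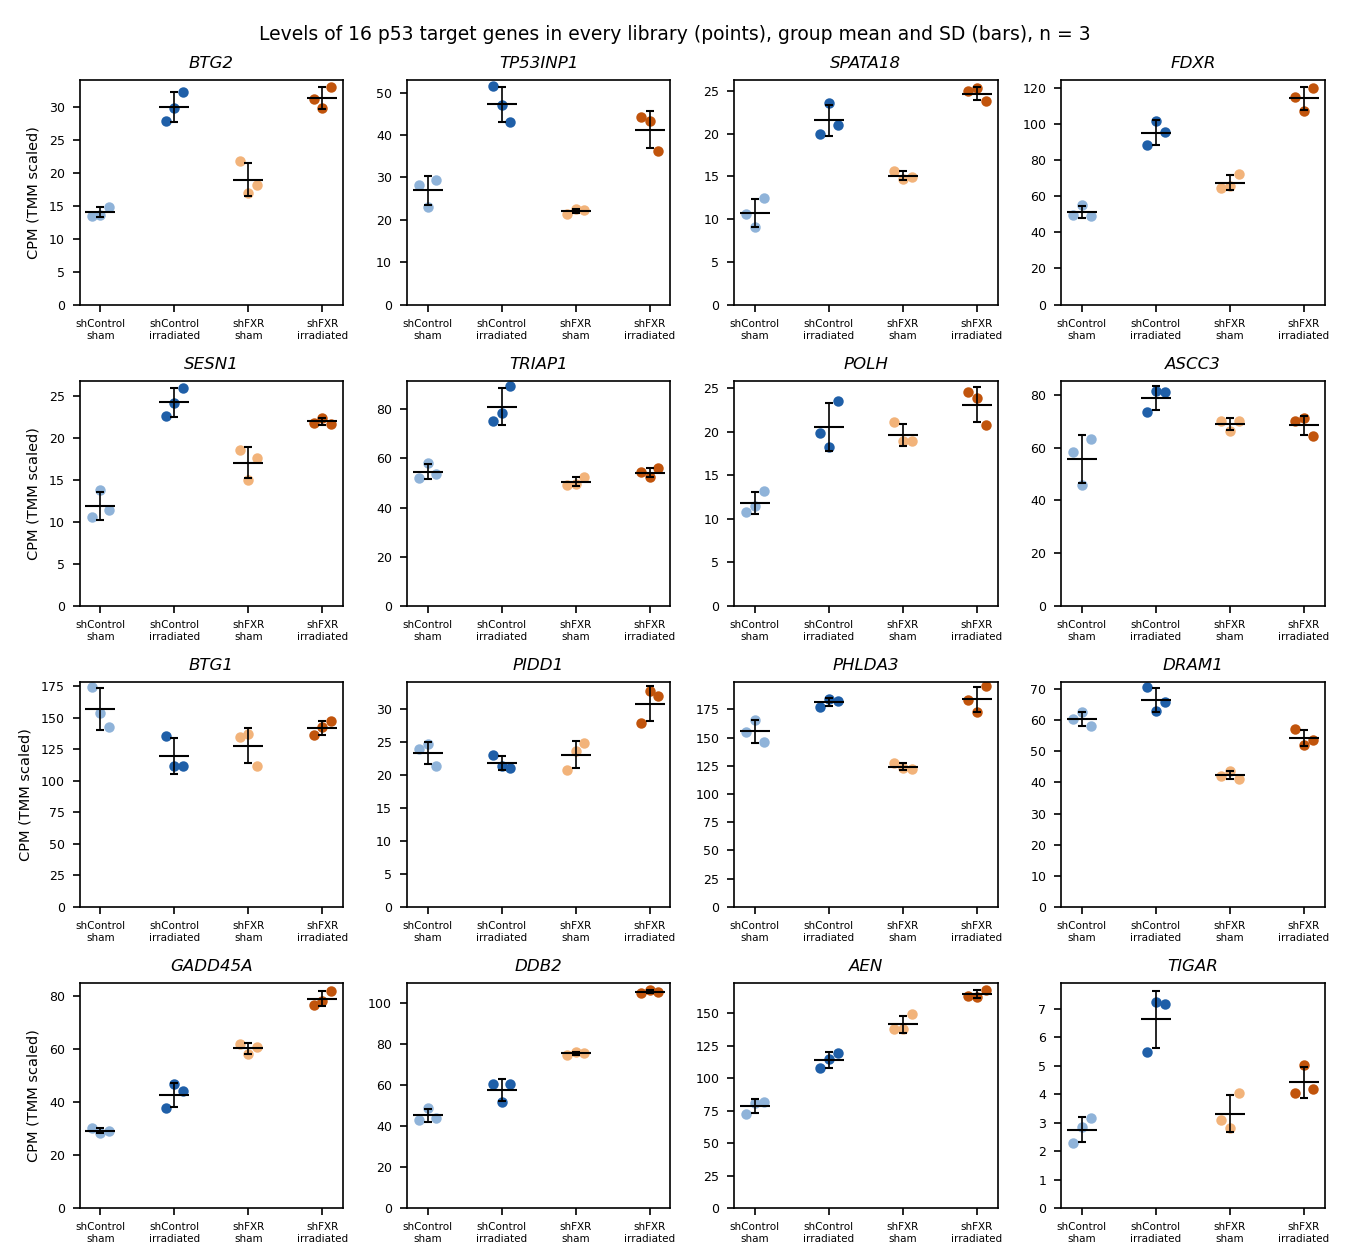
TMM-scaled CPM of 16 of the genes in each library (points), with the mean and SD of each group of 3 (bars), every vertical axis starting at 0. TRIAP1 is high in irradiated shControl cells only, PIDD1 is highest in irradiated shFXR cells, and GADD45A, DDB2 and AEN are higher in sham shFXR than in irradiated shControl cells.

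Leaving out single libraries, 22 of the 28 calls in shControl cells and 15 of the 23 in shFXR cells held in all 12 cases. In shControl cells the calls of BTG1, CCNG1, PLK3 and TP53I3 were lost without 1 to 3 libraries of that line (adjusted p up to 0.086, 0.085, 0.12 and 0.11), CCNG1 without irradiated library 3 only. In shFXR cells the calls of AEN, XPC, RPS27L, SESN1, PLK2, EPHA2, EDA2R and FBXO22 were lost without 1 to 6 libraries (adjusted p up to 0.13, 0.20, 0.14, 0.12, 0.08, 0.091, 0.076 and 0.057). Total count scaling ended the calls of KITLG in shControl cells and of XPC and AEN in shFXR cells (adjusted p = 0.063, 0.11 and 0.074), and without a filter those of PHLDA3 in shControl cells and of XPC, AEN and EPHA2 in shFXR cells were lost (adjusted p = 0.10, 0.08, 0.15 and 0.082). With limma and library weights, an alternative chosen after seeing the data, POLH, TIGAR, TP53I3 and ACER2 also passed in shFXR cells (adjusted p = 0.021, 0.037, 0.0025 and 0.045).

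The response itself differed between the lines for 11 of the 36 genes, 8 with the lower and 3 with the higher response in shFXR cells (all tested genes 7.67% lower and 7.31% higher). The median difference, shFXR minus shControl, was -0.26 on the log2 scale, beside 0.015 over all tested genes. SESN1 had the lowest adjusted p, with a difference of -0.66 ± 0.15 (adjusted p = 0.0088). TRIAP1 differed by -0.47 ± 0.11 (adjusted p = 0.01), ASCC3 by -0.50 ± 0.13 (adjusted p = 0.017) and POLH by -0.56 ± 0.16 (adjusted p = 0.022). Responses of FBXO22, AEN, APAF1 and TIGAR were lower in shFXR cells by 0.35 ± 0.11 (adjusted p = 0.032), 0.32 ± 0.10 (adjusted p = 0.038), 0.53 ± 0.17 (adjusted p = 0.038) and 0.85 ± 0.28 (adjusted p = 0.043). For SESN1, POLH, ASCC3, FBXO22, AEN and APAF1 the sham level was also higher in the shFXR line, and since the sham libraries enter both values these are not independent.

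BTG1 (0.54 ± 0.13, adjusted p = 0.012), PIDD1 (0.51 ± 0.14, adjusted p = 0.017) and PHLDA3 (0.34 ± 0.10, adjusted p = 0.026) had the higher response in shFXR cells. BTG1 fell in shControl cells, PIDD1 did not pass there, and PHLDA3 rose in both lines from a lower sham level in shFXR cells. Of the 13 genes called in 1 line only, the difference passed for TRIAP1, BTG1, ASCC3, POLH, TIGAR and PIDD1. It did not pass for CCNG1, KITLG, ACER2, TP53I3, SUSD6, DRAM1 and EPHA2, so their responses are not shown to differ between the lines. Under other filters KITLG and EPHA2 did pass, as given below. For 25 of the 36 genes the difference did not pass. The 95% interval of the difference, not adjusted for the number of genes, reached from -0.37 to 0.10 for FDXR, from -0.61 to 0.03 for SPATA18 and from -0.67 to -0.08 for BTG2. For TP53INP1 it was -0.20 to 0.39, and for ACER2, with the lowest counts, -1.91 to -0.19.

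Calls of BTG1, TRIAP1 and SESN1 held without any 1 of the 12 libraries. The other 8 were each lost without 1 to 9 libraries, with adjusted p up to 0.13 for TIGAR, 0.12 for APAF1, 0.097 for AEN, 0.095 for FBXO22, 0.091 for PHLDA3, 0.078 for POLH, 0.055 for ASCC3 and 0.055 for PIDD1. The count was 3 without irradiated shFXR library 3, 5 without sham shFXR library 1 or irradiated shControl library 3, 6 without sham shControl library 1 or irradiated shControl library 2, and 7 without sham shFXR library 3 or irradiated shFXR library 1. Without sham shControl library 2 it was 13. PLK2, whose difference was -0.32 ± 0.11 (adjusted p = 0.056), passed with RLE scaling, total count scaling, no filter, the replicate block, DESeq2 and limma (adjusted p from 0.0070 to 0.0498). Limma with library weights called 17 genes in all, adding PLK2, BTG2, RPS27L, TNFAIP8, DRAM1 and EPHA2. Without a filter PHLDA3 did not pass (adjusted p = 0.074), while KITLG and EDA2R gained a call (adjusted p = 0.046 and 0.044). With a minimum mean of 5 CPM, EPHA2 gained one (adjusted p = 0.032). Between the irradiated lines EPHA2, TNFAIP8 and ZMAT3 did not pass without a filter (adjusted p = 0.13, 0.06 and 0.052).

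In sham cells most of these genes had a higher level in the shFXR line. Of the 36, 22 were higher and 4 lower in sham shFXR than in sham shControl cells, where 18.0% of all tested genes were called higher and 19.4% lower. The median log2 difference was 0.33, beside -0.011 over all tested genes. All 6 repair genes were higher, as were 7 of 11 metabolic and autophagy genes, 3 of 7 death and survival genes, 2 of 5 arrest genes, 2 of 4 feedback genes and 2 of 3 receptor and ligand genes. Without sham shControl library 2 the counts were 21 higher and 4 lower.

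GADD45A was higher in sham shFXR cells by 1.05 ± 0.08 (adjusted p = 6.0e-09), AEN by 0.85 ± 0.07 (adjusted p = 1.6e-08), DDB2 by 0.74 ± 0.08 (adjusted p = 3.2e-07) and POLH by 0.73 ± 0.12 (adjusted p = 4.9e-05). CCNG1 was higher by 0.46 ± 0.07 (adjusted p = 4.5e-05), CYFIP2 by 0.53 ± 0.09 (adjusted p = 7.2e-05) and SESN2 by 0.58 ± 0.12 (adjusted p = 6.3e-04). DRAM1 was lower by 0.51 ± 0.07 (adjusted p = 2.0e-05), PHLDA3 by 0.32 ± 0.07 (adjusted p = 0.0012), BTG1 by 0.29 ± 0.09 (adjusted p = 0.019) and TP53INP1 by 0.29 ± 0.10 (adjusted p = 0.035). Scaled by total counts alone, BTG1 and TP53INP1 did not pass (adjusted p = 0.10 and 0.16). TP53INP1 also missed the threshold without a filter (adjusted p = 0.057). Fitted on the sham groups alone, TP53INP1 and CMBL missed it (adjusted p = 0.052 and 0.05001). The other calls of this comparison that single libraries decided were those of RPS27L, XPC and CMBL, lost without 6, 3 and 2 libraries (adjusted p up to 0.13, 0.073 and 0.11), and BTG1 and TP53INP1 without 2 and 5 (adjusted p up to 0.15 and 0.15).

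Between the irradiated groups 14 were higher and 5 lower in the shFXR line, where 19.5% of all tested genes were called higher and 21.3% lower, and the median log2 difference was 0.11, beside -0.001 over all tested genes. In the shFXR line 10 genes were higher under both treatments (all tested genes 8.83%), among them GADD45A (0.88 ± 0.08, adjusted p = 3.7e-08), DDB2 (0.87 ± 0.08, adjusted p = 2.2e-08), CYFIP2 (0.57 ± 0.08, adjusted p = 1.6e-05), AEN (0.53 ± 0.07, adjusted p = 5.8e-06) and SESN2 (0.44 ± 0.11, adjusted p = 0.0029). A further 12 were higher in sham cells and did not pass after radiation (all tested genes 8.38%), such as SESN1 (-0.14 ± 0.10, adjusted p = 0.30), ACER2 (0.01 ± 0.26, adjusted p = 0.98), BTG2 (0.06 ± 0.10, adjusted p = 0.63) and POLH (0.17 ± 0.11, adjusted p = 0.24). PIDD1, which did not differ beyond the spread in sham cells (-0.01 ± 0.10, adjusted p = 0.93), was higher in irradiated shFXR cells by 0.50 ± 0.10 (adjusted p = 2.9e-04). TRIAP1 was lower there by 0.58 ± 0.08 (adjusted p = 7.1e-06), TIGAR by 0.58 ± 0.18 (adjusted p = 0.015), PLK2 by 0.41 ± 0.08 (adjusted p = 3.6e-04), DRAM1 by 0.29 ± 0.07 (adjusted p = 0.0032) and ZMAT3 by 0.23 ± 0.09 (adjusted p = 0.039), the last not with total count scaling (adjusted p = 0.19). The count of called genes was 10 without irradiated shControl library 2 and 11 without irradiated shFXR library 1 or 3. TIGAR and ZMAT3 lost their calls without 4 and 8 libraries (adjusted p up to 0.066 and 0.11), and BTG1, EPHA2, RRM2B, TNFAIP8 and TP53I3, each higher in irradiated shFXR cells, lost theirs without 5 (adjusted p up to 0.17, 0.14, 0.11, 0.17 and 0.20). The calls of CCNG1, FDXR and CMBL were lost without 2, 2 and 1 libraries (adjusted p up to 0.076, 0.061 and 0.081), and 9 of the 19 calls held in all 12 cases.

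**Figure D4:**
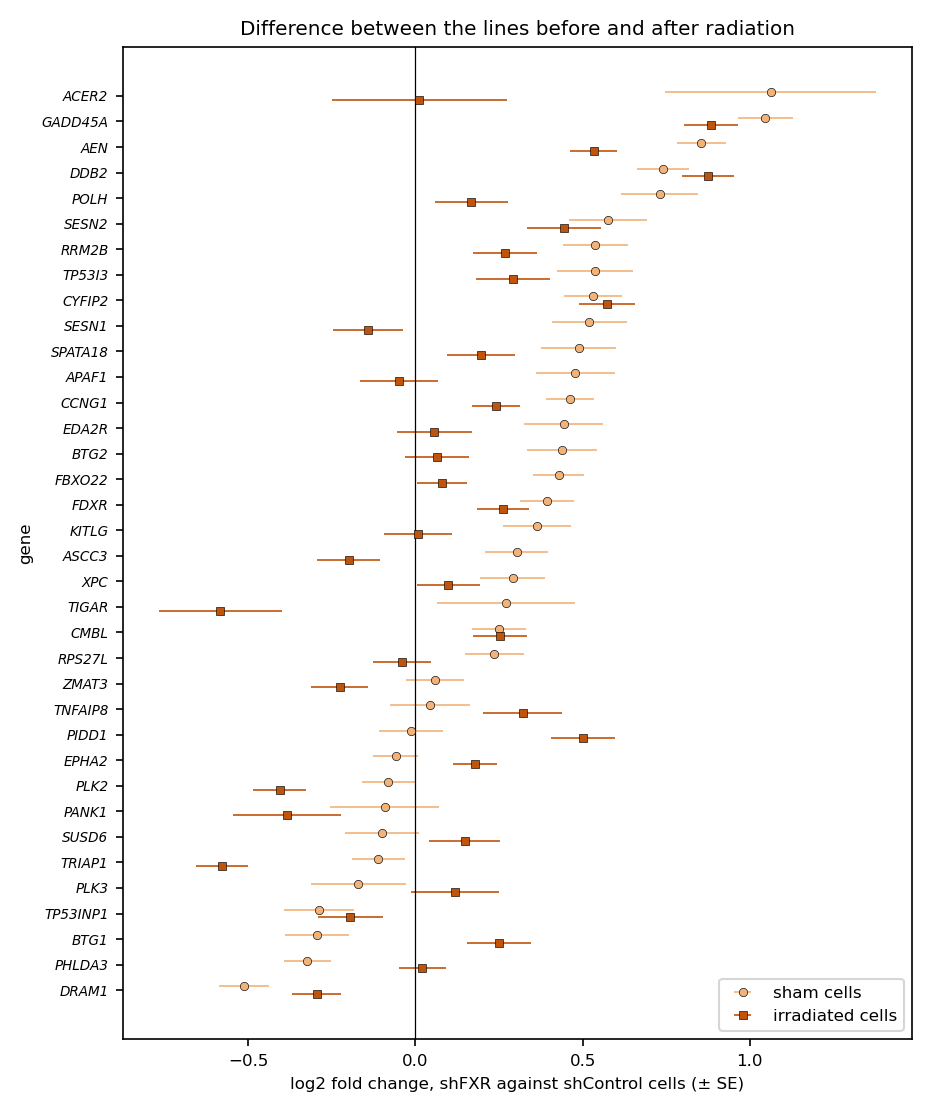
Log2 fold change of shFXR against shControl cells (± SE) for each of the 36 genes in sham cells (circles) and irradiated cells (squares), ordered by the sham value. Most circles lie right of 0, and for POLH, SESN1, ACER2, APAF1 and TIGAR the square lies further left than the circle, while for PIDD1, BTG1 and PHLDA3 it lies further right.

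Other genes of the pathway, a chosen list of 32 that holds the p53 loop, its kinases and the death arm, gave 28 tested genes. After radiation 12 of them rose and 2 fell in the shControl line, where the shares of all tested genes were 5.07% and 4.96%. In the shFXR line 9 rose and 4 fell, beside shares of 10.9% and 10.2%. CDKN1A, the gene of the p21 cell cycle inhibitor, measured 324, 320.0 and 325 CPM in sham and 763, 783 and 699 CPM in irradiated shControl cells, against 353, 377 and 355 CPM in sham and 735, 706 and 753 CPM in irradiated shFXR cells. The p53 ligase gene MDM2 measured 78.98, 83.2 and 89.3 CPM in sham and 176, 192 and 188 CPM in irradiated shControl cells, against 74.1, 66.1 and 70.8 CPM in sham and 127, 135 and 126 CPM in irradiated shFXR cells. CDKN1A rose by 1.21 ± 0.07 (adjusted p = 2.9e-09) in shControl and 1.01 ± 0.07 (adjusted p = 2.3e-09) in shFXR cells, and MDM2 by 1.14 ± 0.07 (adjusted p = 9.5e-09) and 0.88 ± 0.07 (adjusted p = 3.8e-08), without overlap between sham and irradiated libraries of a line. Unlike the 22 genes above, MDM2 was lower in sham shFXR cells by 0.25 ± 0.07 (adjusted p = 0.01). Scaling by total counts (adjusted p = 0.088) or leaving out sham shControl library 3 or sham shFXR library 2 (adjusted p up to 0.075) ended that call. CDKN1A differed by 0.16 ± 0.07 (adjusted p = 0.068), which passed with RLE scaling (adjusted p = 0.049), total count scaling (0.011) and DESeq2 (0.016). Between irradiated lines MDM2 was called lower in shFXR cells whichever library was left out. Its log2 differences there were -0.55 to -0.49 (adjusted p up to 1.7e-04). The difference of responses was not called for MDM2 or CDKN1A, at -0.315 to -0.225 and -0.246 to -0.166 in those runs. MDM2 gained a call in 2 of them, and limma with library weights called both (adjusted p = 0.0074 and 0.028).

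The death receptor gene FAS rose by 0.65 ± 0.10 (adjusted p = 4.3e-04) in shControl cells and had 0.11 ± 0.11 (adjusted p = 0.52) in shFXR cells, a difference of -0.55 ± 0.15 (adjusted p = 0.018). GDF15, a stress cytokine gene, rose by 1.10 ± 0.10 (adjusted p = 1.4e-06) and 0.72 ± 0.10 (adjusted p = 2.8e-05), and the mitotic kinase gene PLK1 fell by 1.39 ± 0.21 (adjusted p = 3.4e-04) and 3.32 ± 0.24 (adjusted p = 6.7e-09). BBC3, which encodes the death protein PUMA, and PML, the gene of the nuclear body scaffold, had the higher response in shFXR cells, by 0.62 ± 0.13 (adjusted p = 0.0038) and 0.61 ± 0.12 (adjusted p = 0.0027), and PLK1 had the lower one (-1.94 ± 0.33, adjusted p = 0.0012). Between the sham lines this list was higher for 7 and lower for 11 of 28 genes, beside 18.0% and 19.4% of all tested genes. Its median log2 difference was -0.14, against -0.011 over all tested genes. PERP, a desmosome protein gene, was lower by 0.54 ± 0.07 (adjusted p = 5.8e-06) and GDF15 by 0.74 ± 0.10 (adjusted p = 8.4e-06), while GADD45B was higher by 0.96 ± 0.11 (adjusted p = 1.5e-06).

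Genes of dividing cells changed with radiation and between the lines. The summed level of 12 proliferation genes was 467 to 632 CPM in sham and 293 to 441 CPM in irradiated shControl cells, and 624 to 807 CPM in sham and 149 to 162 CPM in irradiated shFXR cells. Of these 12, 10 fell in shControl and 12 in shFXR cells after radiation (all tested genes 4.96% and 10.2%). A lower response in shFXR cells was called for 11 of these genes (all tested genes 7.67%), and 5 were higher in sham shFXR cells (18.0%). Their part in the values of the 36 genes was not tested, nor was that of the mitochondrial share, which was 12.9% to 16.8% in shControl and 9.996% to 13.1% in shFXR libraries.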

How the data were processed

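Messenger RNA was captured on poly-T beads, per the labels' protocols, and sequenced as 12 libraries, 3 in each of 4 groups. The deposited table holds raw counts per gene, per the file headers and its whole-number values. The submitters' processing notes name hg38 and DESeq2 (1.20.0) but no step. No source used here names the aligner, the counting tool or the strand setting. Coordinates of all 36 genes equal those of GENCODE 29.

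Low genes were removed with filterByExpr (minimum count 10, minimum total count 15), leaving 16053 of 58735. TMM-scaled counts were tested with edgeR's quasi-likelihood F-test, with 1 coefficient per group over 12 libraries and 8 residual degrees of freedom. A Benjamini-Hochberg adjusted p under 0.05 over all tested genes was a call, and SE is |log2 fold change| over the root of F. P-values cover the spread between these libraries, which may be technical. The 36 genes, their roles, the other lists and the tests were chosen with earlier results of these data known. Values of every library are given for the 8 genes of largest mean response among those higher in both lines, and, by smallest adjusted p, for up to 10 called in the difference, 5 per line called in 1 line only and 5 called between sham lines. CDKN1A, MDM2 and up to 3 further pathway genes per comparison are named, and FAS and MDM4 also where outside that limit. A gene of that list is not reported here.

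The following alternatives were run: RLE scaling, total count scaling, no filter, a minimum mean of 5 CPM, protein-coding genes, a replicate block, a fit of the compared groups alone, DESeq2, and omission of each library in turn. A limma fit with library weights was added after seeing the data. Versions were DESeq2 1.42.0, limma 3.58.1, edgeR 4.0.16 and R 4.3.3. Promoter windows are RefSeq's, on GRCh38.p14.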

Additional observations from a re-analysis of the deposited data

Results flagged for a closer look

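The radiation response of 11 of the 36 genes differed between the lines by the test of the difference itself, given here as the log2 response in shFXR minus that in shControl cells. Lower responses in shFXR cells were found for TIGAR (-0.85), SESN1 (-0.66), POLH (-0.56), APAF1 (-0.53), ASCC3 (-0.50), TRIAP1 (-0.47), FBXO22 (-0.35) and AEN (-0.32). Higher responses were found for BTG1 (0.54), PIDD1 (0.51) and PHLDA3 (0.34). For SESN1, AEN, FBXO22 and PHLDA3 both lines rose, APAF1 passed in neither line, and BTG1 is the gene that fell in shControl cells.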

How the results depend on the processing

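Counts of called genes stayed within 1.5 times of those reported under RLE scaling, total counts, both filters, protein-coding genes, DESeq2 and a fit of only the groups compared, and no called gene changed direction under any alternative run. Limma with library weights, chosen after seeing the data, called the difference of responses for 17 genes in place of 11. Leaving out single libraries gave 23 to 28 calls for radiation in shControl cells, 17 to 23 in shFXR cells, 3 to 14 for the difference of responses, 22 to 26 between sham lines, 10 to 20 between irradiated lines and 13 to 19 higher in both lines; the cause was not tested. Deviations of libraries with the same replicate number correlated between -0.14 and 0.23, over 0.1 in 2 of 18 pairs, and 3 of 12 libraries correlated best with their own number, so the numbers were not taken to pair samples. With the replicate number as a block the counts were 27, 22, 12, 26, 18 and 17 in the same order. The block ended the calls of PHLDA3 in shControl cells (adjusted p = 0.072), XPC in shFXR cells (0.0503) and EPHA2 between irradiated lines (0.059), and PLK2 gained one in the difference (0.042). Counts were lowest for ACER2, at 6 to 48 per library.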

Other observations

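Close relatives of the sestrin, GADD45 and cyclin G genes were measured too, and SESN3, GADD45B and CCNG2 were named after their values were seen. SESN3 rose by 0.82 ± 0.19 (adjusted p = 0.011) in shControl cells, as SESN1 and SESN2 did, while its response in shFXR cells, where SESN1 and SESN2 rose, was 0.30 ± 0.22 (adjusted p = 0.35). It was lower in sham shFXR than in sham shControl cells by 0.54 ± 0.21 (adjusted p = 0.048), where SESN1 and SESN2 were higher. GADD45B was higher in sham shFXR cells, as GADD45A was, yet its log2 fold change after radiation was -0.35 ± 0.12 (adjusted p = 0.072) in shControl and -0.10 ± 0.11 (adjusted p = 0.53) in shFXR cells. CCNG2 was lower in sham shFXR cells by 0.59 ± 0.13 (adjusted p = 0.0017), where CCNG1 was higher, and its log2 fold change after radiation was -0.02 ± 0.13 (adjusted p = 0.94) and 0.15 ± 0.14 (adjusted p = 0.48). MDM4, an inhibitor of p53, fell by 0.42 ± 0.10 (adjusted p = 0.012) in shControl cells and had 0.18 ± 0.10 (adjusted p = 0.20) in shFXR cells, a difference of 0.60 ± 0.14 (adjusted p = 0.0090).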
